A study of Mus musculus with 24 samples.

Results

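Oligodendrocyte and myelin genes were followed in the mouse hippocampus after a night of corticosterone in the drinking water. The set held 38 genes out of 23787 named genes with a probe on the array, chosen by name from the oligodendrocyte lineage with earlier results of these data known, so that the share of them that differed is a description: 29 genes of mature myelinating cells, 3 transcription factors of the whole lineage, 2 genes of premyelinating cells and 4 genes of precursors or committed precursors. Each gene was read from its brightest probe, and the intensity of that probe is the unit of every level given here. Intensities of different probes depend on the probe sequence, so levels were compared only within a gene, apart from sums over marker lists, which the brightest probes carry.

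The arrays compared whole hippocampi of male Swiss-Webster mice, an outbred stock, aged 12 weeks per the labels. By the study's methods the mice were moved to single cages at about that age and treated some weeks later. For the 12 h of the dark phase the treated animals drank 100 µg/ml corticosterone dissolved with 0.45% hydroxypropyl-β-cyclodextrin, and the control animals drank the cyclodextrin alone. Animals were taken at hour 1, hour 5 or hour 9 of the following light phase, 8 treated and 8 control at each hour, 48 in all. Each of the 24 two-colour arrays held a control animal in the green channel and a treated animal in the red channel. No dyes were swapped, so a dye effect on a probe is part of each treated against control value and cannot be told apart from it there, while a constant one drops out when the effect is compared between hours. In tissue of this kind, fewer cells of a type and less RNA per cell cannot be told apart.

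Oligodendrocytes wrap axons in myelin, a membrane stack rich in cholesterol and galactolipids and held together by a small set of abundant proteins. They arise through life from precursors that carry the growth factor receptor Pdgfra and the proteoglycan Cspg4, pass a short premyelinating stage and then switch on the myelin genes under Sox10 and Myrf. Corticosterone is the main glucocorticoid of mice, and oligodendrocytes carry its receptors.

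Of the 38 genes, 37 were well above background on most arrays. The exception was Myrf, the transcription factor that starts myelination, whose probe was not well above background on any array, so its level has only a bound and no ratio is given. It passed no test and is counted in totals and sums over 38 or 29 genes, and medians and means are given over the other 28 mature genes, a choice made after seeing the data, with the median of each hour over all 29 beside it. For the gap junction gene Gjc3 this held in 22 of the 24 control samples and in 23 of the treated ones. No spot of these probes was saturated. Over all spots of an array, 57.9% to 64.2% were well above background in the control channel and 61% to 70.4% in the treated channel. A list of genes known to answer to glucocorticoids was chosen with earlier results of these data known. They were higher at hour 1 in 6 of 6 cases, beside 8.79% of all probes, among them Fkbp5 with a log2 ratio of 0.60 and Sgk1 with 0.71. At hour 9, 3 of the 6 were lower and 1 higher, beside 6.93% and 6.97% of all probes. Fkbp5 (-0.27, limma adjusted p = 0.014), Tsc22d3 (-0.58) and Zbtb16 (-0.28) were lower, while Sult1a1, a sulfotransferase, was still higher by 1.68.

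The RefSeq promoters (build GRCm38.p6) of 4 genes are shown first, to show the sequence before the start of the genes described next. Among the genes that differed at all 3 hours, these 4 had the largest absolute log2 ratios at hour 1. They are Opalin, a membrane protein of the paranodal myelin loops, Gpr37, a receptor of maturing oligodendrocytes, Tmem88b, a membrane protein, and Mobp, a basic protein of compact myelin. Each line gives the 250 bases before the transcription start, 5′ to 3′ on the strand of the gene. Capitals mark matches, on either strand, to 5 searched motifs: the full glucocorticoid site, which is AGAACA, 3 free bases and TGTTCT, its half-site AGAACA, the SOX-type motifs ACAAAG and ACAATG, and the E-box CAGCTG. The full site contains the half-site. The windows lie on the minus strand at chr19:41077114-41077363 for Opalin, chr6:25689981-25690230 for Gpr37 and chr4:155785875-155786124 for Tmem88b, and on the plus strand at chr9:120149492-120149741 for Mobp.
Opalin: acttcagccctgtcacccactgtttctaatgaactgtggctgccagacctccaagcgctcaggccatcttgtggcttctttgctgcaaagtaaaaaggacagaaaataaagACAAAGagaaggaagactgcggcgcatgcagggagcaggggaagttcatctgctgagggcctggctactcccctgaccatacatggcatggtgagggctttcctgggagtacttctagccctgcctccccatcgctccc
Gpr37: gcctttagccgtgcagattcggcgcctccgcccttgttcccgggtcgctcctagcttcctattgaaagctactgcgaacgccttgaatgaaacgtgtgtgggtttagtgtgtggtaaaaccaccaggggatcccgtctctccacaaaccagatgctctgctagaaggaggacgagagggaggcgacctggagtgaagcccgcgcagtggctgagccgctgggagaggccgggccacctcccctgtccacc
Tmem88b: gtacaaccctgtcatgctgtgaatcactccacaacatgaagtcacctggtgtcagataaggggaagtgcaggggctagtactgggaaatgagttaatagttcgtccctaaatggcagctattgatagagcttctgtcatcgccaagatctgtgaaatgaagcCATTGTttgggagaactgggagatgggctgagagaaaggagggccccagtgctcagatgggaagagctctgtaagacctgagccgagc
Mobp: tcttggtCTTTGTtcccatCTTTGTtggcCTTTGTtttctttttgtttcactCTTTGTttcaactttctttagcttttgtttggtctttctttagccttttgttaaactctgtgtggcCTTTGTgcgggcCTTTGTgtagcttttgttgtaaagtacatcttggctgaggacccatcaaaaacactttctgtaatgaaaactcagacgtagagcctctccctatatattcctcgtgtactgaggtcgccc
Promoters were found for 29 of the 38 genes, in 38 windows. The half-site AGAACA was in 3 of these windows, those of Tspan2 and Gjb1, against 16.1% of all 32851 windows, and the full site was in 0 of them against 0.00913% of all windows. ACAAAG was in 10 of the 38 windows (16.5% of all windows), ACAATG in 9 (3512 of all windows) and CAGCTG in 3 (13%). The Mobp window held ACAAAG at 6 places, the Opalin window at 1, and the Tmem88b window held ACAATG at 1 place. A match of letters is a description and not a site of binding.

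A large share of the set differed between treated and control animals at hour 1. In the separate channel test of limma, with p-values adjusted by Benjamini-Hochberg over 56605 probes, 18 of the 38 genes differed between treated and control animals, 15 lower and 3 higher, beside 17.5% of all probes and 24.3% of the 15438 named genes whose brightest probe had a mean intensity of 50 or more. At hour 5 again 18 genes differed, 15 lower and 3 higher, beside 18.1% of all probes and 23.6% of those brighter genes. At hour 9 there were 12, of which 10 were lower and 2 higher, beside 13.9% of all probes and 16.3% of the brighter genes. Lower calls made up 8.74%, 9.5% and 6.93% of all probes at the 3 hours, and 39.5%, 39.5% and 26.3% of the set. Higher calls made up 8.79%, 8.64% and 6.97% of all probes and 7.89%, 7.89% and 5.26% of the set. The hour 9 count varied with the slides kept, as did the count over all probes, which was 7867 with all slides. Without slide 1, which carried 4 of the 8 arrays, 1 gene was called, beside 1798 over all probes. Without slide 2 there were 4 genes, beside 4716 probes, and without slide 3 there were 13, beside 4922 probes. The ratio kept its sign on all 3 slides for 18 of 18 calls at hour 1, 18 of 18 at hour 5 and 10 of 12 at hour 9, where Mag (0.04) and Bcas1 (0.08) were above 0 on slide 3.

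**Figure D1:**
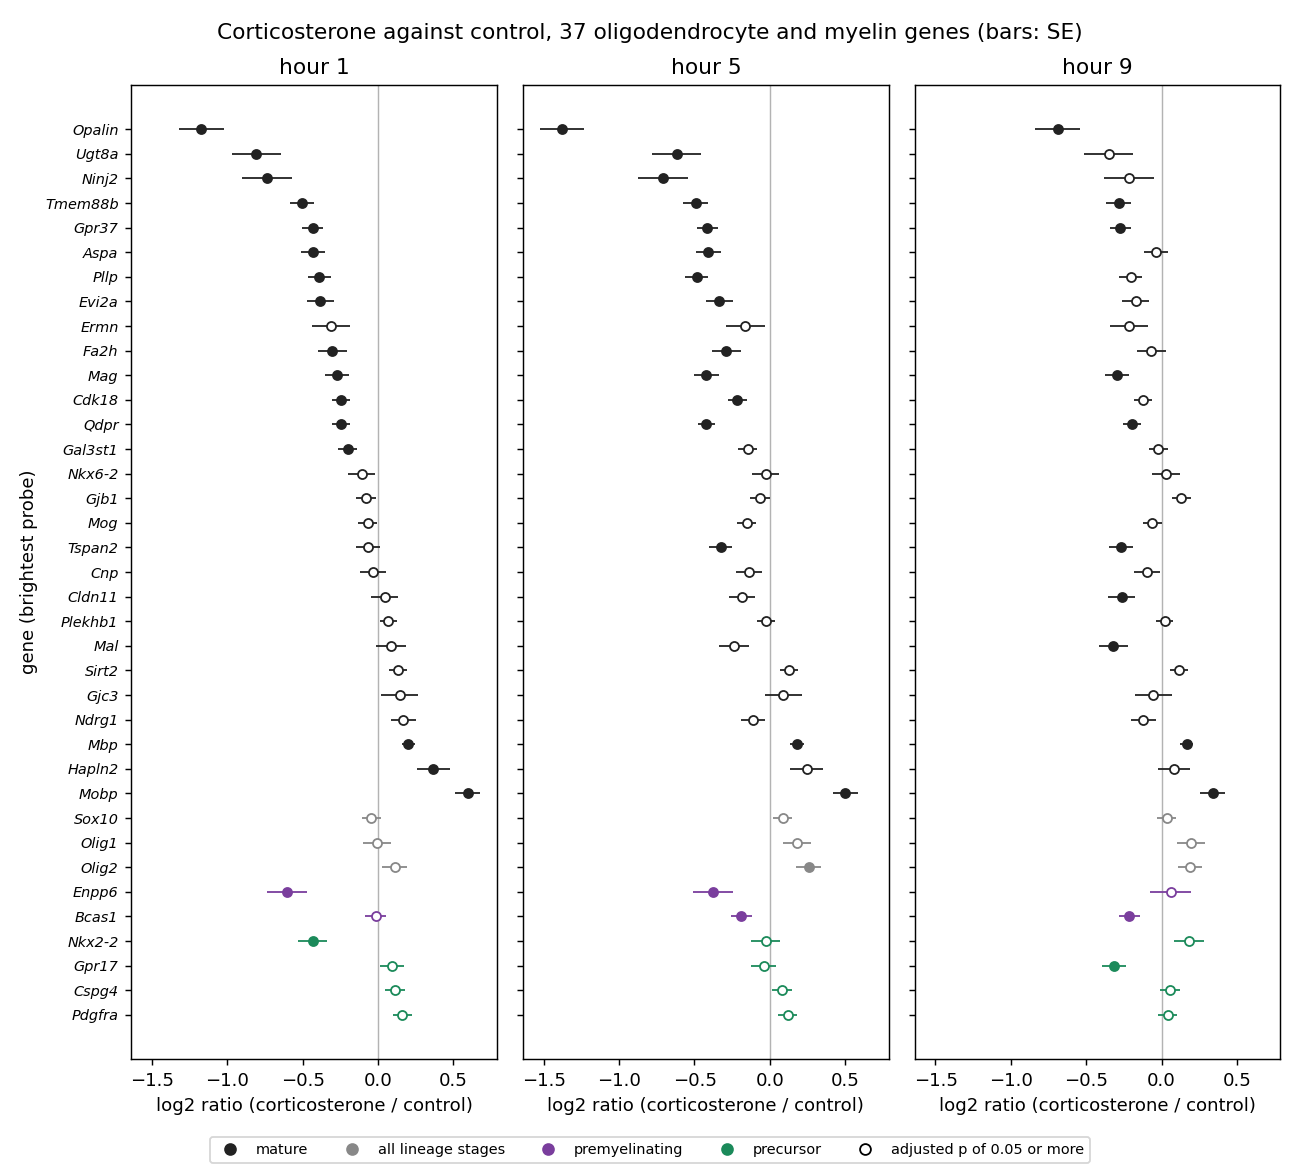
Log2 ratio of corticosterone to control (horizontal axis) for 37 of the 38 genes, all but Myrf (vertical axis) at hours 1, 5 and 9, with SE bars. Filled points have an adjusted p under 0.05; most filled points of mature genes lie left of 0, and Mobp and Mbp lie right of 0 at each hour.

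The pattern over time was mixed within the set. 7 genes differed at all 3 hours: Gpr37, Mag, Opalin, Qdpr and Tmem88b were lower and Mbp and Mobp were higher. 8 genes were lower at hours 1 and 5 alone (Aspa, Cdk18, Enpp6, Evi2a, Fa2h, Ninj2, Pllp and Ugt8a), 2 at hour 1 alone (Gal3st1 and Nkx2-2), 2 at hours 5 and 9 (Bcas1 and Tspan2) and 3 at hour 9 alone (Cldn11, Gpr17 and Mal). Hapln2 was higher at hour 1 and Olig2 at hour 5. The other 14 genes passed the test at no hour: Cnp, Cspg4, Ermn, Gjb1, Gjc3, Mog, Myrf, Ndrg1, Nkx6-2, Olig1, Pdgfra, Plekhb1, Sirt2 and Sox10. Of the brighter named genes 9.45% were called at all 3 hours, 6.65% at hours 1 and 5 alone, 6.87% at hour 1 alone, 5.28% at hour 5 alone, 2.23% at hours 5 and 9, 3.32% at hour 9 alone and 64.9% at none, in either direction. A call at one hour and none at another is no test of a change, which is given further on.

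The Opalin probe had the largest fall among the brightest probes of the 38 genes at each hour. It is the only probe matched to Opalin here. The study's annotation places it on a variant that retains an intron and not on the canonical transcript. The study reports prolonged Opalin changes from such a probe alone, and not from another that should bind the canonical transcript. The values below are of the probe used here and are not a measure of canonical Opalin, which was not analysed here. At hour 1 its intensity ran from 178 to 380 with a median of 224 in control animals and from 79.5 to 135 with a median of 112 in treated animals. At hour 5 the controls spanned 224 to 447 (median 332) and the treated animals 63.8 to 213 (median 121), and at hour 9 306 to 383 (median 343) and 141 to 296 (median 212). The groups did not overlap at any hour, and the treated animal was the lower one on 8 of 8 arrays each time. The log2 ratios were -1.17 (SE 0.149, limma adjusted p = 1.3e-07), -1.38 (adjusted p = 1.3e-09) and -0.69 (adjusted p = 0.00042), so that the level fell by 55.6% at hour 1, fell by 61.6% at hour 5 and fell by 38% at hour 9.

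Gpr37 and Tmem88b were lower by smaller amounts and also on 8 of 8 arrays at each hour. Gpr37 ranged from 1623 to 2075 (median 1765) in controls and from 1085 to 1419 (median 1348) in treated animals at hour 1, with no overlap. Its control and treated medians were 1855 and 1395 at hour 5 and 1961 and 1521 at hour 9, where the ranges overlapped. The log2 ratio of Gpr37 was -0.43, -0.41 and -0.27 (SE 0.068, limma adjusted p = 3.6e-06, 9e-06 and 0.0028).
Tmem88b ranged from 2219 to 3396 (median 2667) in controls and from 1538 to 2191 (median 1869) in treated animals at hour 1, again without overlap. At hours 5 and 9 its ranges overlapped, with medians of 2980 against 2048 and 2831 against 2262. Its log2 ratio was -0.51, -0.49 and -0.28 (SE 0.082, limma adjusted p = 6.7e-06, 1.1e-05 and 0.011).

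Mag, the myelin-associated glycoprotein of the membrane next to the axon, ran from 1825 to 2308 (median 1927) in controls and from 1379 to 1890 (median 1660) in treated animals at hour 1. Its medians were 2267 and 1557 at hour 5 and 2326 and 1727 at hour 9, and the ranges overlapped at every hour. The log2 ratio was -0.27, -0.42 and -0.30 (SE 0.081, limma adjusted p = 0.012, 0.00012 and 0.0072).
Qdpr, which regenerates tetrahydrobiopterin and is high in oligodendrocytes, had medians of 24502 and 20746 at hour 1, 27156 and 19280 at hour 5, and 24602 and 20860 at hour 9, control before treated. The treated animal was lower on all 8 arrays at each hour, although the ranges overlapped. Its log2 ratio was -0.25, -0.42 and -0.20 (SE 0.058, limma adjusted p = 0.0012, 2.2e-07 and 0.011), and its other 2 probes were lower at each hour, with 5 of their 6 tests past the threshold.

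Mobp went the other way. Its intensity ran from 2200 to 3173 (median 2426) in controls and from 3271 to 4909 (median 3721) in treated animals at hour 1, without overlap. At hour 5 the medians were 2721 and 3639 and at hour 9 3019 and 3694, with overlapping ranges. All 8 arrays of each hour gave a ratio above 0. The log2 ratio was 0.59, 0.50 and 0.34 (SE 0.085, limma adjusted p = 5.1e-07, 1.4e-05 and 0.0032). A second Mobp probe, well above background in every sample, gave 0.58, 0.33 and 0.16 (adjusted p = 2.5e-07, 0.0016 and 0.18), so the hour 9 call held for 1 of 2 probes.
Mbp, the other major basic protein of myelin, was higher by less with its brightest probe. Its medians were 9627 and 10999 at hour 1, 9694 and 11130 at hour 5 and 9062 and 10015 at hour 9, where the ranges of 8480 to 9400 and 9603 to 10700 did not overlap. The log2 ratio was 0.20, 0.18 and 0.17 (SE 0.045, limma adjusted p = 0.00058, 0.0022 and 0.0055). The other 2 Mbp probes are matched to a different Mbp transcript than the brightest. They passed the test at no hour, and their ratios ran from 0.19 at hour 1 to -0.13 at hour 9. The rise of Mbp thus held for 1 of its 3 probes and is not shown for every Mbp transcript.

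**Figure D2:**
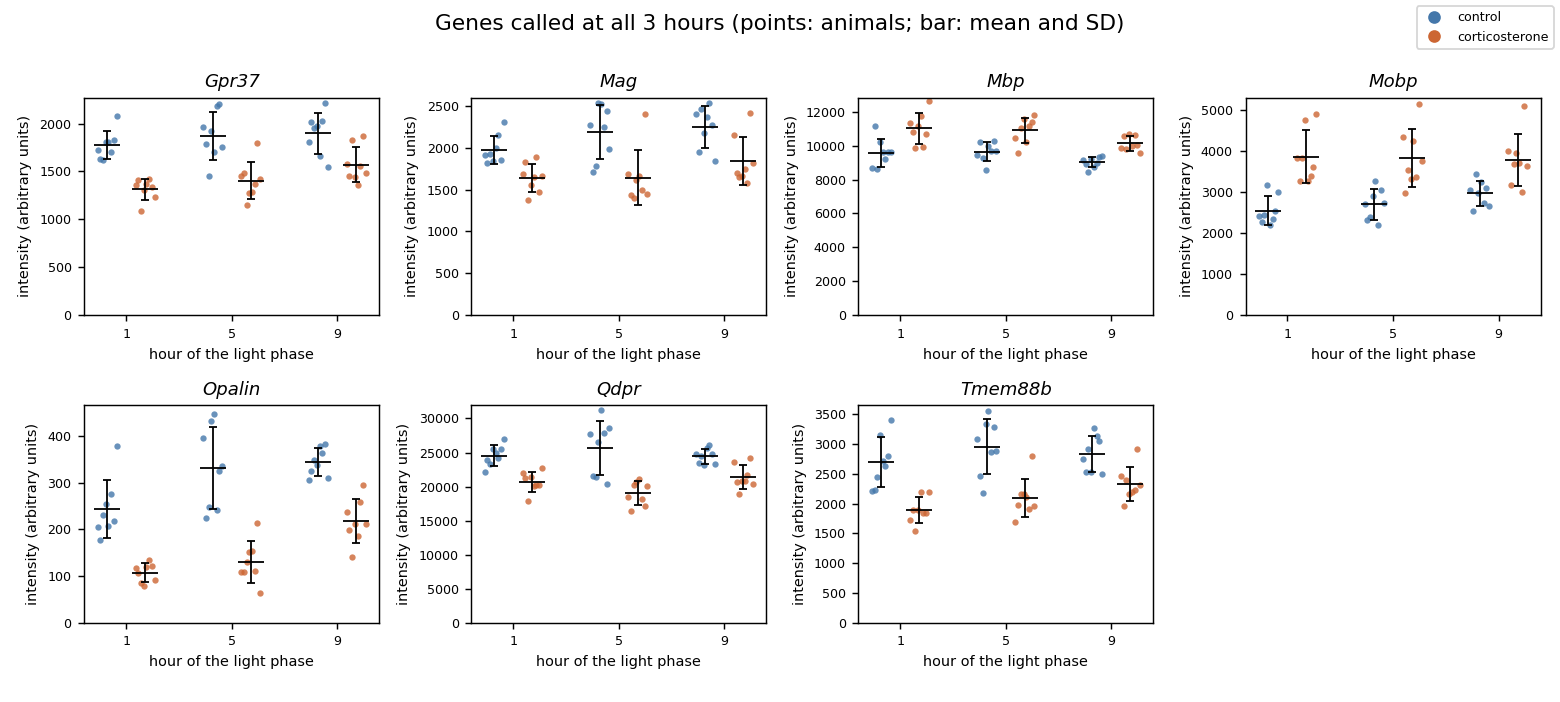
Probe intensity (vertical axis, arbitrary units) of the 7 genes that differed at hours 1, 5 and 9 of the light phase (horizontal axis). Each point is an animal and bars show the mean and SD of 8; treated animals lie below controls for Opalin at each hour without overlap, and above them for Mobp at hour 1.

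The 4 enzymes of myelin lipids and acetate were lower at hour 1. Ugt8a, which makes galactosylceramide, the main galactolipid of myelin, ran from 419 to 978 (median 493) in controls and from 255 to 438 (median 309) in treated animals at hour 1. At hours 5 and 9 the medians were 490 against 321 and 539 against 418, and the groups overlapped at each hour. The log2 ratio was -0.81, -0.62 and -0.35 (SE 0.162, limma adjusted p = 0.00024, 0.0047 and 0.13). A second Ugt8a probe was lower at all 3 hours, with ratios of -0.62, -0.41 and -0.33 (adjusted p = 8.7e-06, 0.0024 and 0.017).
Aspa, which releases acetate from N-acetylaspartate for lipid synthesis, had medians of 462 and 350 at hour 1, 526 and 382 at hour 5 and 490 and 476 at hour 9. The treated animal was lower on 8 of 8 arrays at hours 1 and 5 and on 4 of 8 at hour 9, and the ranges overlapped. Its log2 ratio was -0.43, -0.41 and -0.04 (SE 0.082, limma adjusted p = 9.8e-05, 0.00022 and 0.81).
Fa2h, which hydroxylates the fatty acids of myelin galactolipids, gave -0.30, -0.29 and -0.07 (limma adjusted p = 0.017, 0.021 and 0.68). Gal3st1, which turns galactosylceramide into sulfatide, gave -0.20, -0.15 and -0.02 (adjusted p = 0.017, 0.079 and 0.87). With their brightest probes all 4 enzymes passed the test at hour 1, 3 at hour 5 and 0 at hour 9, beside 24.3%, 23.6% and 16.3% of the brighter genes. The change of effect from hour 1 to hour 9 passed for none of them. Its limma adjusted p was 0.089 for Aspa and 0.65 to 0.78 for the others. At hour 9 Ugt8a alone had an unadjusted p under 0.05.

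Among the 16 sheath and membrane proteins, 6 were lower and 3 higher at hour 1, 7 and 2 at hour 5, and 6 and 2 at hour 9, beside 24.3%, 23.6% and 16.3% of the brighter genes called in either direction. Pllp, plasmolipin, fell from a median of 746 in controls to 583 in treated animals at hour 1 and from 968 to 666 at hour 5, with 954 against 817 at hour 9. It was lower on 8, 8 and 7 of the 8 arrays, with overlapping ranges, and its log2 ratio was -0.39, -0.49 and -0.21 (SE 0.078, limma adjusted p = 0.00019, 5.1e-06 and 0.053). Evi2a gave -0.38, -0.34 and -0.17 (adjusted p = 0.0014, 0.0048 and 0.19).
Ninj2, an adhesion protein, had medians of 166 and 97.6 at hour 1, 206 and 122 at hour 5 and 166 and 147 at hour 9. Its ranges overlapped at each hour and its log2 ratio was -0.74, -0.71 and -0.22 (SE 0.165, limma adjusted p = 0.0013, 0.0011 and 0.38). A second Ninj2 probe was not well above background in any sample of either group, so its ratios carry no direction.

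Tspan2, Mal and Cldn11, 3 membrane proteins of myelin, did not pass the test at hour 1. Tspan2, a tetraspanin, had medians of 3233 and 3129 at hour 1, 3935 and 2879 at hour 5 and 3713 and 3207 at hour 9, with ratios of -0.07, -0.33 and -0.27 (SE 0.078, limma adjusted p = 0.58, 0.0014 and 0.01). Mal, a proteolipid of myelin rafts, had medians of 9226 and 8999 at hour 1 and 8936 and 7332 at hour 9, and ratios of 0.09, -0.24 and -0.32 (SE 0.097, adjusted p = 0.57, 0.069 and 0.016). Cldn11, the claudin that forms the tight junctions between myelin layers, had medians of 3753 and 3181 at hour 9 and ratios of 0.04, -0.19 and -0.26 (adjusted p = 0.78, 0.13 and 0.029). The ranges overlapped for all 3 genes at each hour. Hapln2, a link protein of the nodes of Ranvier, was higher at hour 1, with medians of 95.2 and 126 and a ratio of 0.36 (adjusted p = 0.016), and gave 0.24 and 0.08 later.

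Several well known myelin genes passed the test at no hour. Cnp, the phosphodiesterase of non-compact myelin, gave -0.03, -0.14 and -0.10, and Plekhb1 0.07, -0.03 and 0.02. Mog, the outermost myelin glycoprotein, gave -0.07, -0.15 and -0.06 (limma adjusted p = 0.47, 0.077 and 0.55), although a second Mog probe was lower at hour 5 (-0.29, adjusted p = 0.025). Ermn, a cytoskeletal protein of myelin, gave -0.31, -0.16 and -0.21 (adjusted p = 0.069, 0.38 and 0.25). The gap junction gene Gjb1 gave -0.08, -0.06 and 0.13, and the transcription factor Nkx6-2 -0.11, -0.03 and 0.03, none past the test. Of the signalling genes, Cdk18, a kinase, was lower at hours 1 and 5 (-0.25 and -0.22, adjusted p = 0.0023 and 0.0069). Sirt2, a deacetylase of the myelin sheath, gave 0.13, 0.13 and 0.12 (adjusted p = 0.11, 0.12 and 0.18), although its second probe was higher at hour 1 (0.19, adjusted p = 0.026). Ndrg1 gave 0.17, -0.11 and -0.12.

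Of the 3 factors that run through the lineage, 1 passed the test, at hour 5. Of the brighter genes 24.3%, 23.6% and 16.3% were called at hours 1, 5 and 9. Sox10 had medians of 1743 and 1667 at hour 1, 1773 and 1899 at hour 5 and 1781 and 1796 at hour 9, and its ratios of -0.05, 0.08 and 0.03 did not pass the test. Olig1 had medians of 4157 and 4132, 3836 and 4397, and 3680 and 4252, with ratios of -0.01, 0.18 and 0.19 (limma adjusted p = 0.97, 0.15 and 0.14). Olig2 had medians of 473 and 534, 547 and 672, and 462 and 523, with ratios of 0.11, 0.26 and 0.19 (SE 0.082, adjusted p = 0.37, 0.016 and 0.11). Ranges overlapped for all 3 at each hour.

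The 2 surface markers of precursors passed the test at no hour with their brightest probes. Pdgfra had medians of 2122 in controls and 2293 in treated animals at hour 1, 2051 and 2347 at hour 5 and 2119 and 2116 at hour 9. Its ratios were 0.16, 0.12 and 0.04 (SE 0.063, limma adjusted p = 0.057, 0.16 and 0.7). A dimmer Pdgfra probe was lower at hour 1 (-0.34, adjusted p = 0.008) while being well above background in 5 of 8 controls. The other Pdgfra probe was not well above background in any control sample and is given no ratio.
Cspg4 had medians of 510 and 562, 592 and 657, and 585 and 606, with ratios of 0.11, 0.08 and 0.06 (adjusted p = 0.25, 0.42 and 0.61). The treated and control ranges of both genes overlapped at each hour.

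Gpr17, a receptor of committed precursors, and Nkx2-2, a transcription factor of early differentiation, differed between groups at different hours. Gpr17 had medians of 5443 and 5561 at hour 1 and 5216 and 5158 at hour 5. At hour 9 the controls ran from 3819 to 5641 (median 4277) and the treated animals from 3012 to 4038 (median 3523), lower on 8 of 8 arrays with an overlap of the ranges. Its log2 ratio was 0.09, -0.04 and -0.32 (SE 0.080, limma adjusted p = 0.42, 0.75 and 0.0037).
Nkx2-2 ran from 93.8 to 149 (median 119) in controls and from 61.5 to 127 (median 93.8) in treated animals at hour 1, lower on 8 of 8 arrays. Its medians were 135 and 137 at hour 5 and 127 and 136 at hour 9, and the ranges overlapped throughout. The ratio was -0.43, -0.03 and 0.18 (SE 0.098, adjusted p = 0.002, 0.89 and 0.2), and a second probe gave -0.37, -0.11 and -0.20 (adjusted p = 0.012, 0.42 and 0.14), with the opposite sign at hour 9.

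The 2 premyelinating genes were called at different hours with their brightest probes, Enpp6 at hours 1 and 5 and Bcas1 at hours 5 and 9. The change of effect from hour 1 to hour 9 passed for neither (limma adjusted p = 0.08 and 0.66), and their timing was not compared by a test. Enpp6, a choline phosphodiesterase of newly forming oligodendrocytes, ran from 135 to 276 (median 186) in controls and from 96.5 to 148 (median 133) in treated animals at hour 1, with medians of 207 and 140 at hour 5 and 198 and 192 at hour 9. Its ratio was -0.60, -0.38 and 0.06 (SE 0.135, limma adjusted p = 0.00099, 0.035 and 0.78). The other 2 Enpp6 probes, both dimmer and the dimmest not well above background in every sample, gave -0.16 and -0.26 at hour 1 (adjusted p = 0.39 and 0.07) and -0.34 each at hour 5 (adjusted p = 0.063 and 0.023), so the hour 1 call held for 1 of 3 probes. Bcas1, a marker of early myelination, had medians of 9432 and 9458, 10569 and 8960, and 9631 and 8305, with ratios of -0.02, -0.19 and -0.21 (SE 0.070, adjusted p = 0.9, 0.04 and 0.024). A second Bcas1 probe gave 0.06, -0.13 and -0.11 and passed at no hour (limma adjusted p = 0.61, 0.23 and 0.34). Ranges overlapped for both at each hour.

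**Figure D3:**
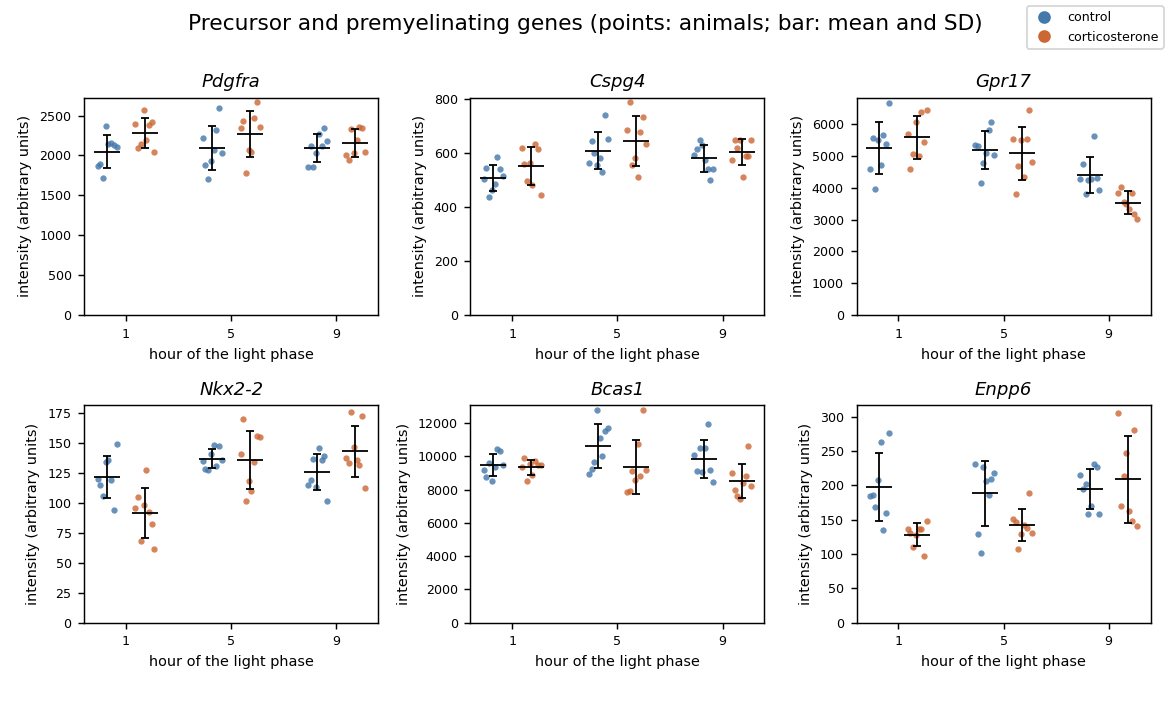
Probe intensity (vertical axis, arbitrary units) of the 4 precursor and 2 premyelinating genes at hours 1, 5 and 9 (horizontal axis). Points are animals and bars the mean and SD of 8; treated animals are lower for Nkx2-2 at hour 1, Enpp6 at hours 1 and 5, Bcas1 at hours 5 and 9 and Gpr17 at hour 9, and the groups overlap in every panel.

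Mature and precursor genes are set side by side here as a description. The median log2 ratio of the 28 mature genes without Myrf was -0.16, -0.20 and -0.12 at hours 1, 5 and 9 (-0.11, -0.19 and -0.12 with Myrf). At hour 1 the mature median lay between -0.17 and -0.07 over 16 alternatives of processing. The median of the 4 precursor genes was 0.10, 0.03 and 0.05, and that of all 56605 probes -0.00, 0.00 and 0.00. On single arrays the median of the 28 ran from -0.28 to -0.01 at hour 1, from -0.43 to 0.01 at hour 5 and from -0.30 to 0.10 at hour 9, and it lay below the precursor median on 8 of 8 arrays at each hour. Of the 29 mature genes 13, 13 and 8 were lower and 3, 2 and 2 higher, beside 8.74%, 9.5% and 6.93% of all probes lower and 24.3%, 23.6% and 16.3% of the brighter genes called in either direction. Of the 4 precursor genes 1, 0 and 1 were lower and 0 higher, beside the same shares. The precursor median rested on 4 genes and on the choice of probe. With the second brightest probe where there is one it was -0.12, -0.04 and -0.18 at hours 1, 5 and 9. The Pdgfra probe used there was well above background in 5, 1 and 4 of 8 controls at these hours. Within slides the mature median was below 0 in 8 of the 9 slide and hour combinations, the exception being 0.03 on slide 3 at hour 9.

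**Figure D4:**
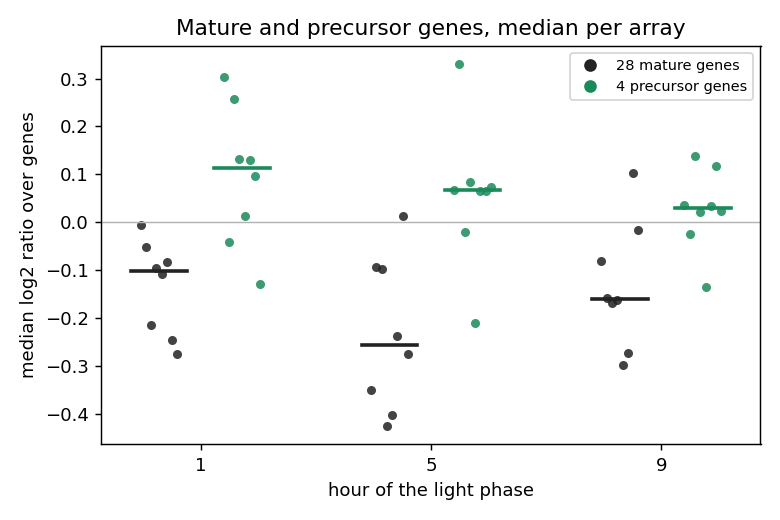
Median log2 ratio of corticosterone to control over 28 mature genes, all but Myrf, and 4 precursor genes (vertical axis) on each array at hours 1, 5 and 9 (horizontal axis). Points are arrays and lines the median of 8; the mature points lie below the precursor point of the same array on every array.

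The change of the corticosterone effect between hours was tested directly, and a constant dye effect drops out of it. From hour 1 to hour 9 it passed the test for 1 of the 38 genes, beside 0.829% of all probes: the ratio of Nkx2-2 went up by 0.62 (SE 0.139, limma adjusted p = 0.013). The second Nkx2-2 probe gave 0.17 (adjusted p = 0.99), so the change held for 1 of 2 probes, while the second Mobp probe passed with -0.42 (adjusted p = 0.036) against -0.26 (adjusted p = 0.59) for the brightest. Without slide 1 or slide 3 no gene passed, and other settings called up to 4. Gpr17 gave -0.41 (SE 0.113, adjusted p = 0.05, not past the threshold before rounding), Aspa 0.40 (adjusted p = 0.089), Enpp6 0.66 (adjusted p = 0.08) and Opalin 0.48 (adjusted p = 0.73). From hour 1 to hour 5 and from hour 5 to hour 9 the same limma test passed 0 of the 38 genes, beside 0.0389% and 0.0813% of all probes, with 5 and 8 genes at an unadjusted p under 0.05.

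Levels also moved between hours within each treatment. In control animals Pllp was higher at hour 9 than at hour 1 by 0.36 (SE 0.091, limma adjusted p = 0.036), the only 1 of 38 genes, beside 0.516% of all probes, and 0 genes differed between hours 1 and 5 or 5 and 9 (0.0053% and 0.0318% of all probes; 8 and 2 genes at an unadjusted p under 0.05). Without slide 1 or slide 2 the count between hours 9 and 1 was 0, and without slide 3 it was 2.
In treated animals 12 genes differed between hours 9 and 1, 9 higher and 3 lower, beside 3.93% of all probes. Opalin was up by 1.01 (SE 0.175, limma adjusted p = 0.00011), Nkx2-2 by 0.67 (adjusted p = 5.2e-05), Enpp6 by 0.66, Pllp by 0.54, Aspa by 0.50, Cdk18 by 0.33, Gpr37 by 0.25, Gal3st1 by 0.24 and Gjb1 by 0.24. Gpr17 gave -0.66 (SE 0.094, adjusted p = 1.3e-06), Ndrg1 -0.39 and Mal -0.37. Without slide 1 the count was 5.
Between hours 5 and 1 of treated animals 3 genes differed, beside 0.537% of all probes: Nkx2-2 (0.59) and Olig2 (0.40) were higher at hour 5 and Ndrg1 (-0.39) was lower. Between hours 9 and 5 there were 2, beside 0.668%: Opalin was higher by 0.79 (adjusted p = 0.013) and Gpr17 gave -0.51 (adjusted p = 0.0012). Without slides 1, 2 and 3 the first of these counts was 0, 1 and 0 and the second 1, 1 and 0. Whether a gene moved differently in treated than in control animals is the change of effect given above, which among brightest probes Nkx2-2 alone passed.

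Animals of the same group differed in their mature genes. The mean log2 level of the 28 mature genes without Myrf, taken relative to its group mean, ran from -0.19 to 0.24 in control animals at hour 5 and from -0.13 to 0.31 in treated animals at hour 9. In the highest treated animal of hour 9, on slide 3, 26 of the 28 genes were above the group mean, and in the lowest control animal of hour 9 it was 1 of 28. The median spread between animals was an SD of 0.196 log2 units for these mature genes and 0.176 for precursor genes, beside 0.154 for named genes with a mean intensity of 50 or more. Ninj2, Ugt8a and Opalin spread the most.

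A further 35 genes of mature oligodendrocytes gave 14 lower and 3 higher at hour 1, 13 and 2 at hour 5, and 8 and 2 at hour 9, with medians of -0.14, -0.18 and -0.08, beside 24.3%, 23.6% and 16.3% of the brighter genes called in either direction and 8.74%, 9.5% and 6.93% of all probes lower. Trf, transferrin, gave log2 ratios of -0.38, -0.45 and -0.21 (limma adjusted p = 0.00018, 1.4e-05 and 0.044). Serpinb1a gave -0.87, -0.85 and -0.31, and the lysophosphatidic acid receptor gene Lpar1 -0.45, -0.61 and -0.36. Apod, a lipid-binding protein, was higher by 0.83, 0.84 and 0.81 (adjusted p = 7.3e-08, 7e-08 and 3.8e-07). A further 16 precursor genes gave 5 lower and 4 higher at hour 1, 3 and 1 at hour 5, and 1 and 1 at hour 9, with medians of -0.06, -0.09 and -0.00, below those of the 4 precursor genes. The shares called at hours 5 and 9 were close to those of the brighter genes. Ptprz1 was among the higher, by 0.25, 0.26 and 0.16.

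Lists of 10 marker genes were read for each of 5 other cell types, beside the 24.3%, 23.6% and 16.3% of brighter genes called at hours 1, 5 and 9. Of the astrocyte markers 4, 4 and 3 were higher and 1, 3 and 2 lower, with median log2 ratios of 0.08, -0.01 and -0.06. The endothelial markers here include the mural cell genes Pdgfrb, Rgs5 and Kcnj8. Of these markers 2, 2 and 1 were higher and 4, 3 and 2 lower, with medians of -0.12, -0.07 and 0.12. The microglial markers had 0 higher and 3, 3 and 2 lower (medians -0.03, -0.05 and -0.08), and the neuronal markers 1 lower at hour 1 and 3 and 2 higher at hours 5 and 9 (medians 0.03, 0.10 and 0.09). The choroid plexus list, with 3 of 10 genes under an intensity of 50, had 1 call, at hour 1 (medians 0.00, -0.05 and 0.04). The summed level of the neuronal markers ran from 252222 to 278158 in controls and from 254193 to 272875 in treated animals at hour 1. The ratio of mean sums at the 3 hours was 0.997, 1.04 and 1.03 for neuronal, 1.14, 1.09 and 1.08 for astrocyte, 0.955, 0.960 and 0.951 for microglial and 0.921, 0.905 and 0.925 for endothelial markers, and 0.934, 0.880 and 0.913 for the 29 mature oligodendrocyte genes. For astrocyte markers at hours 5 and 9, endothelial markers at hour 9 and neuronal markers at hour 1 the sum and the median went opposite ways. The part of these shifts in the results above was not tested.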

How the data were processed

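RNA of hippocampi was measured on two-colour Agilent arrays. The authors deposited scanner files with median spot and background intensity, processed signal intensity and spot marks from Feature Extraction 10.7.3.1, and a table of log2 ratios, also made by the authors. Median intensities were corrected by normexp, normalised by loess within and quantile between arrays, and tested with the separate channel model of limma 3.58.1 (R 4.3.3), as in the study's methods: p-values come from the fit with offset 50, log2 ratios and intensities from that with offset 0. The 56605 unique probes were fitted together with 6 groups. Outlier spots were left out, and 77 probes missing an array were fitted on their remaining arrays. Genes were named through RefSeq transcript accessions, which named 34566 probes. Members and lists were chosen with earlier results of these data known. All 38 genes are named. Single animals are drawn for the genes called at all hours and for the precursor and premyelinating genes. Group medians are printed for these, for the lineage factors and for some others, and the remaining genes have ratios or calls only. The number of arrays limits the precision. Per the study's methods each treated group had a control group of siblings, and all mice were housed singly. Each group was drawn from fewer litters than it had animals, so some animals of a group were littermates. No litter term was fitted, and the tests treat the animals of a group as independent. Some genes of the further lists count in their totals and are not reported here singly.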

Additional observations from a re-analysis of the deposited data

Results flagged for a closer look

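In 5 of the 114 gene and hour combinations, 1 of the 8 arrays lay far from the other 7, by a gap test that marks about 1 in 20 groups by chance. The Mal log2 ratio on array 8 of hour 1 was 0.556, beside -0.109 to 0.164 on the others. On the same array Sirt2 was at -0.312 (others 0.0784 to 0.301) and Nkx2-2 at -1.28 (others -0.644 to -0.0968). The Cdk18 ratio on array 2 of hour 1 was -0.803, beside -0.288 to -0.0453. The Nkx6-2 ratio on array 4 of hour 5 was -0.4, beside -0.0923 to 0.103. The corticosterone effect on Nkx2-2 differed between hours 9 and 1 by 0.616 in the limma test of the difference.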

How the results depend on the processing

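The labels give no replicate numbers, so no replicate block was fitted. The pairing of a treated with a control animal on each array was analysed with limma on log ratios. This called 20, 21 and 12 genes at hours 1, 5 and 9, beside 10291, 10513 and 7798 over all probes. It kept all 48 single gene calls. The choices of offset, background, normalisation, probe filter, slide block and deposited ratios lost at most 1 of the 48 calls each and turned none. Leaving out slides 1, 2 and 3 lost 16, 20 and 12 of the 48, with fewer arrays. The calls against control at hour 9 then numbered 1 without slide 1 and 4 without slide 2, beside 1798 and 4716 over all probes. The change of effect from hour 1 to 9 was called for 2 genes with Aquantile, with no background correction, with processed signals and with the deposited ratios, 3 with limma on log ratios, 4 with the intensity filter and 0 without slide 1 or slide 3. Calls between hours 9 and 1 in control animals were 0 with offset 0 and without slide 1 or slide 2, and 2 without slide 3. In treated animals, hours 5 and 1 gave 0, 1 and 0 calls without slides 1, 2 and 3, hours 9 and 5 gave 1, 1 and 0, and hours 9 and 1 gave 5 without slide 1. Counts over all probes for these comparisons between hours under other settings are not reported here. With the second brightest probe, 18 calls could be set against another probe: 7 held, 7 kept the direction but not the call and 4 turned, of which the 2 of Ninj2 come from a probe not well above background in any sample and carry no direction. There the precursor median was -0.12, -0.04 and -0.18 at hours 1, 5 and 9. Mbp was -0.016 and -0.10 at hours 5 and 9, and the Ninj2 probe was listed at 0.51 and 0.72 at hours 1 and 5. The mature median lay between -0.17 and -0.07, -0.26 and -0.16, and -0.15 and -0.08 at hours 1, 5 and 9 over 16 alternatives, of which leaving out Myrf was chosen after seeing the data. The cause of these shifts was not tested.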
